A study of Mus musculus with 3 samples.

Results

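The alpha globin, beta globin and albumin gene loci were examined as genes whose protein products are known mainly from red blood cells and liver. Members were the non-control probes lying on chromosome 11 from 32160000 to 32210000 (alpha globin), chromosome 7 from 110940000 to 111030000 (beta globin) and chromosome 5 from 90880000 to 90960000 (Alb, then Afp), on mouse build mm9. These windows held 187 of the 409597 placed probes of the array. Probes whose starts lay at most 500 bp apart were joined, which gave 18 runs, of which 15 had at least 3 probes and were treated as tiled regions, out of 28880 on the array. The rule used positions only and no measured value, although the windows were chosen with earlier results of these data known. No expression was measured in this series, so whether the genes are silent in these samples was not tested.

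The series profiled 5-methylcytosine in frontal cortex by methylated DNA immunoprecipitation on a 2-colour tiling array. All 3 arrays belong to 1 group, naive male C57BL/6 mice of 2 months, each array carrying DNA pooled from 3 mice, with input DNA in Cy3 and immunoprecipitated (bound) DNA in Cy5. Per the labels the antibody does not bind hydroxymethylated cytosine. There was no treatment, second genotype or untreated comparison group, and bulk cortex mixes neurons, glia and vessel cells, so a value is an average over cells. The sample titles number the pools 1 to 3, whereas the descriptions give every array the same replicate number, and the spread reported here would be technical if arrays shared a pool.

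Globin genes encode the oxygen-binding chains of haemoglobin. In mouse they form an alpha cluster and a beta cluster on different chromosomes, each with genes used in the embryo and genes used in the adult. Albumin (Alb), the main protein of blood plasma, and alpha-fetoprotein (Afp), its fetal relative, lie side by side and are expressed mainly in liver and yolk sac. Methylation of CpG sites is the usual state of CpG-poor promoters of silent tissue-specific genes, and CpG-dense promoters usually stay unmethylated whether or not the gene is used. By its title the series asks about DNA methylation near start sites and the TATA-binding protein, which binds the TATA box of core promoters.

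The promoters of these genes differ in how many CpG sites an antibody against 5-methylcytosine could find. The 250 bases before the annotated start of 6 of them are shown to let CpG sites and TATA boxes be seen in place. They come from RefSeq on GRCm38.p6, a later build than that of the array, so their coordinates cannot be set against mm9 positions. They are written 5′ to 3′ on the gene's strand in lower case, with every CpG and every forward TATAA in capitals.
Hba-a1 (GRCm38.p6, + strand, chr11:32283422-32283671): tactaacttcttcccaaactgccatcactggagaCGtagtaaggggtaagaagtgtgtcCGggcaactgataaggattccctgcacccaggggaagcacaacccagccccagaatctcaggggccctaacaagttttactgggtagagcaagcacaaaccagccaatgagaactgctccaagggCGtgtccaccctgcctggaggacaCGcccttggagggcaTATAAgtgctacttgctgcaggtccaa
Hba-x (GRCm38.p6, + strand, chr11:32276350-32276599): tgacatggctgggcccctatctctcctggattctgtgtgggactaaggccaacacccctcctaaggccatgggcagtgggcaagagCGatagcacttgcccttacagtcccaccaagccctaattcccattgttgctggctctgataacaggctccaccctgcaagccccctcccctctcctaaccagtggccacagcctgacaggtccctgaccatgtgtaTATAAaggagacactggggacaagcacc
Hbq1b (GRCm38.p6, + strand, chr11:32286714-32286963): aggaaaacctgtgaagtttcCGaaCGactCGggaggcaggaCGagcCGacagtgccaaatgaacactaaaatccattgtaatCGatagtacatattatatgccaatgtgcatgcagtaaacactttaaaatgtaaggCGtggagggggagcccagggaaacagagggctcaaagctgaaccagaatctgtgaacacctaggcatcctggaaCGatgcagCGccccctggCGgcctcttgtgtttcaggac
Hbb-bt (GRCm38.p6, - strand, chr7:103813924-103814173): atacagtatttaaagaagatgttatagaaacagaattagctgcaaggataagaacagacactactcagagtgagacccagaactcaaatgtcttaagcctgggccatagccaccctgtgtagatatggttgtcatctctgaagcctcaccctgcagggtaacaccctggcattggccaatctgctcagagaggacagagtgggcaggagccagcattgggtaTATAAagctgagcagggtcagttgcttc
Alb (GRCm38.p6, + strand, chr5:90460620-90460869): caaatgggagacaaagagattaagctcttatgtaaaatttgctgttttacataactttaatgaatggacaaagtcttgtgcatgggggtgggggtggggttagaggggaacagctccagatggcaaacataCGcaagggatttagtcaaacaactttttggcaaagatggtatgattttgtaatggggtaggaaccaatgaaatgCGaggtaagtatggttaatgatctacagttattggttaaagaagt
Afp (GRCm38.p6, + strand, chr5:90490464-90490713): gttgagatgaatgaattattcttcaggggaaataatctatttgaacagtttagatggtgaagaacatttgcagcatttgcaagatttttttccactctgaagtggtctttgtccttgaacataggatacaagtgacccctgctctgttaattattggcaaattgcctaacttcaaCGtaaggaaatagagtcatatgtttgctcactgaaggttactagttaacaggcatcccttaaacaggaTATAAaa

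In these 250 bases Hba-a1, an adult alpha chain gene, had 4 CpGs, and Hba-x, the embryonic zeta chain gene, had 1. Hbq1b, a theta globin gene, had 10 and its copy Hbq1a had 7. Adult beta chain genes had fewer, with none in Hbb-bt and 2 in Hbb-bs. Hbb-y, an embryonic beta-like gene, had 1 and Hbb-bh2 had 3. Alb had 2, Afp had 1 and Afm, the gene of the vitamin E-binding plasma protein afamin, had 1. The median over 32841 mouse promoters was 6, with quartiles of 2 and 16. The alpha locus was thus CpG-rich only beside the other loci: its 5 globin genes had 1 to 10 CpGs with a median of 4, below the median mouse promoter. The more distant albumin relative Gc, the vitamin D-binding protein, had none. Hbb-b1, Hbb-b2, Hbb-bh0 and Hbb-bh1 had no entry in the sequence table.

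The letters TATAA, searched on both strands, were present in 22.8% of all promoters over 250 bases and in 6.4% over the last 50 bases. On the forward strand the motif began 27 bases before the start of Hba-a1, 28 before Hba-x, 28 before Hbb-bt, 29 before Hbb-bs and 30 before Afm. In Afp it began 7 bases before the start given in the table. Neither theta gene nor Alb, Hbb-y or Hbb-bh2 had it on the forward strand. The letters CCAAT, also searched on both strands, stood on the forward strand in Hba-a1, both theta genes, Hbb-bt, Hbb-bs, Hbb-y, Alb and Afm, against 33.9% of all promoters on either strand. Matches of TATAA on opposite strands can overlap, and TATAA and CCAAT can share a T where the former follows the latter. A match shows only that the letters are there.

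The array files name probes by position and not by gene. In the gene order of GRCm38.p6, Nprl3 is followed by Hba-x, Hba-a1, Hbq1b, Hba-a2 and Hbq1a, which are 6 genes for the 6 alpha regions. The beta order is Hbb-bt, Hbb-bs, 2 pseudogenes, Hbb-bh2, Hbb-bh1 and Hbb-y, with the olfactory receptor gene Olfr67 before them, and the albumin order is Alb, Afp and Afm for 3 regions. The table lists Hbb-b1 and Hbb-b2 apart from this order, and Hbb-bt and Hbb-bs in it. Where a gene is mentioned beside a region below, it is the gene in the same place of that order once the pseudogenes, non-coding RNA genes and the genes after the last region are left out, and no coordinate was converted to reach it. In the beta window this leaves Olfr67 and 5 globin genes for 6 regions, and in the albumin window a non-coding RNA gene listed before Alb was left out. The pairing is therefore a guide to position and was not tested. Regions are numbered from low to high coordinates within each window.

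Each value is the log2 of bound over input signal after the median of its array was subtracted. A value of 0 is the median probe of the array and no unmethylated reference. Errors are given as SD between the 3 arrays, and adjusted p values come from limma fitted over all regions or all probes of the array. Between arrays Pearson's r was 0.73 to 0.77 over all probes, which is across probes and not across independent samples.

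Within the alpha globin window some regions were enriched and others depleted. Regions 2, 3 and 5, in the places of Hba-x, Hba-a1 and Hba-a2, carried more bound DNA than the median probe. Regions 1, 4 and 6, in the places of Nprl3, Hbq1b and Hbq1a, carried less. All 6 passed the test, 3 in each direction, and all 6 had 1 sign on 3 of 3 arrays. Among all tiled regions of the array 28.0% were called higher and 38.1% lower.

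Region 3 of the alpha window (chromosome 11, 32182313 to 32183923, 16 probes), in the place of the adult gene Hba-a1, was at 0.99, 0.99 and 0.71 on arrays 1, 2 and 3. The mean of 0.90 ± 0.16 is 1.87-fold above the median probe (limma adjusted p = 4.4e-05), higher than 89.6% of all regions. It was well measured, with 45 of 48 bound and 46 of 48 input measurements well above background. With each array centred on the mode of its distribution in place of the median, it was 0.18 (adjusted p = 0.21). The mode lay 0.70, 0.81 and 0.64 above the median on arrays 1 to 3. Some probes never above background in either channel had ratios near it, and others did not. An albumin probe of this kind, picked as an example, was at 0.71, 0.83 and 0.65. How far such probes set this zero was not tested.

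Region 5 (32195360 to 32196125), in the place of Hba-a2, had 4 probes and was at 0.74, 1.24 and 0.14. The arrays differed more here than in region 3, although all lay above 0. The mean was 0.70 ± 0.55 (limma adjusted p = 0.0035). It fell to 0.29 with loess (adjusted p = 0.17) and to -0.01 with the mode as zero. The promoters of Hba-a1 and Hba-a2 were identical over all 297 bases of their overlap, so a probe placed there could bind DNA of either gene. Which probes of regions 3 and 5 match both copies was not tested.

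Region 2 (32175998 to 32177082, 13 probes), in the place of the embryonic gene Hba-x, was at 0.52, 0.35 and 0.20, a mean of 0.36 ± 0.16 (limma adjusted p = 0.020). That mean hides a step. The 7 probes before the midpoint averaged -0.87, -0.80 and -0.73 on arrays 1 to 3 (-0.80 ± 0.07), and the 6 probes after it 2.15, 1.69 and 1.30 (1.71 ± 0.43). On every array the side of lower coordinates was below the median probe and the other side above it. The call on the whole region ended without replicate 1 (0.28, adjusted p = 0.079) or replicate 2 (0.36, adjusted p = 0.10) and over probes with input above background (0.19, adjusted p = 0.22). Its direction turned with the median over probes (-0.07) and with the mode as zero (-0.36).

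Probe by probe the rise ran over several probes. Split by length into 4 equal stretches, the region was at -0.68, -0.97, 0.89 and 2.53. Between the 2 probes named next lay probes at -0.59, 0.66, 0.59 and 1.44. The probe from 32176367 lay at -1.37 ± 0.14 and was called lower (limma adjusted p = 0.0076). The probe from 32176898 was at 3.17, 2.79 and 2.65, a mean of 2.87 ± 0.27 (limma adjusted p = 0.0038), the highest of the window among probes well above background in both channels on all arrays. Both probes were above background in both channels on 3 of 3 arrays. The spread among the region's probe means, an SD of 1.49, was larger than in 97.6% of the 24979 regions with at least 8 probes, whose median was 0.87.

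Region 4 (32186593 to 32187117, 7 probes), in the place of Hbq1b, was the lowest of the members. It was at -0.85, -1.70 and -0.55, a mean of -1.03 ± 0.60, which is 2.05-fold below the median probe (limma adjusted p = 3.4e-04). Array 2 lay well below the other arrays. Bound DNA was above background in 12 of 21 measurements and input in 18 of 21, so part of the value rests on surrogate signals at the background floor. With the series matrix values, which are the authors' own log2 ratios, the region was -0.52 over 5 probes (adjusted p = 0.053).

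Region 6 (32199756 to 32200269, 6 probes), in the place of Hbq1a, was at -0.04, -1.004 and -0.32, again with array 2 lowest and array 1 close to 0. Its mean of -0.45 ± 0.50 passed the test (limma adjusted p = 0.028) and no longer did without replicate 2 (-0.18, adjusted p = 0.44), with the series matrix values (-0.12, adjusted p = 0.42), with probes joined up to 250 bp (adjusted p = 0.051) or with runs of at least 1 probe included (adjusted p = 0.057). The promoters of Hbq1b and Hbq1a were 95.3% identical over 300 bases. As with the alpha chain genes, whether probes bind both copies was not tested.

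Region 1 (32167389 to 32168860, 16 probes) was at -0.83, -0.42 and -0.32, a mean of -0.52 ± 0.27 (limma adjusted p = 0.0040). It holds the place of Nprl3, a broadly expressed gene that encodes a subunit of a regulator of growth signalling and carries alpha globin enhancers in its introns, with 11 CpGs in its promoter. The lowest probe of the window above background in both channels on all arrays lay here, from 32168166, at -2.09, -2.11 and -2.30 (limma adjusted p = 0.0038). With loess the region was -0.27 (adjusted p = 0.097).

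**Figure D1:**
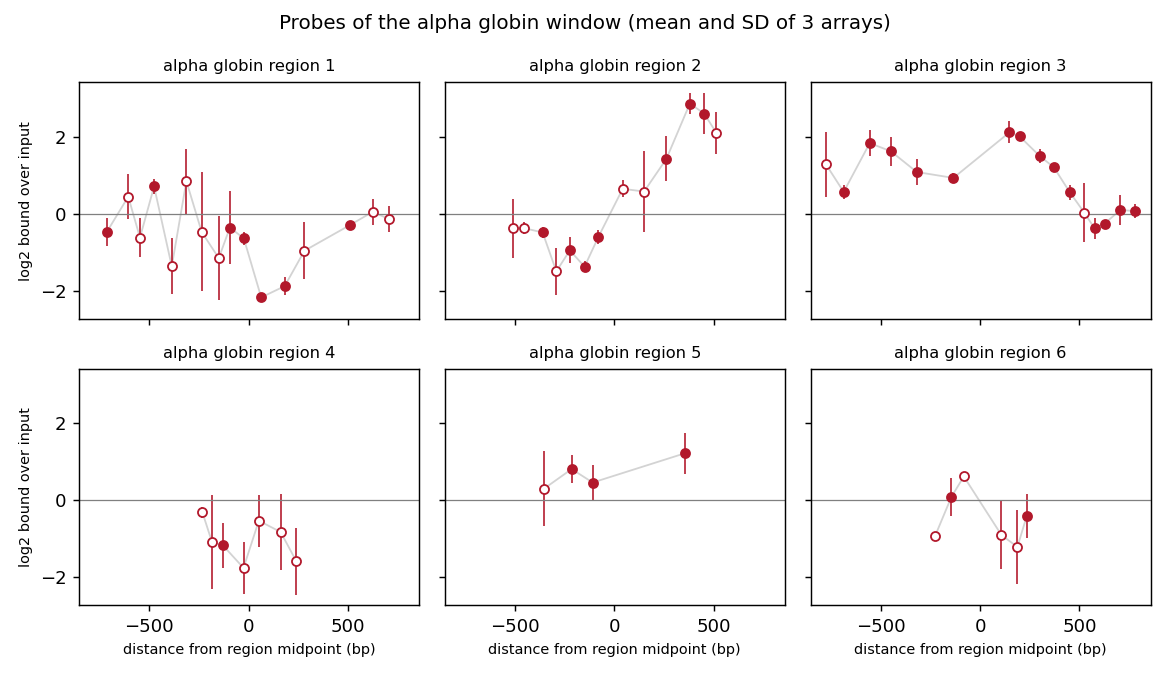
Probes of the 6 alpha globin regions, with the log2 ratio of bound over input relative to the array median on the vertical axis and the distance from the region's midpoint in bp on the horizontal axis. Points are means and bars SDs of 3 arrays, and filled points were well above background in both channels on all arrays. Region 2 rises from -1.37 to 2.87, with probes of intermediate value between. Region 3 stays above 0 over most of its length and reaches 2.12, and region 4 lies below 0 throughout.

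The plot of alpha globin probes also shows the shape of regions 1 to 3. In region 3 probes within 200 bp of the midpoint averaged 1.69 and those over 500 bp away 0.41, a difference of 1.28 ± 0.17 (limma adjusted p = 9.7e-04). On arrays 1 to 3 it was 1.09, 1.42 and 1.33. Split by length into 4 equal stretches, region 3 was at 1.72 ± 0.06 in stretch 3 and at 0.03 ± 0.11 in stretch 4.

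Region 1 had the opposite shape, with -1.23 in the centre and -0.16 at the edges (difference -1.07 ± 0.40, limma adjusted p = 0.0042). In region 2 the centre was lower than the edges by -1.05 ± 0.30 (limma adjusted p = 0.0038), with 2 edge probes, neither above background in both channels on all arrays, that lie on opposite sides of the step described above. Among all 21386 regions that could be tested the centre was higher in 17.0% and lower in 32.4%. Of the 11 member regions tested, 2 had a higher centre and 5 a lower one, some of them on probes without measured signal.

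The beta globin window gave 6 regions and 84 probes. Its mean was close to the array median over all probes and below it over the probes with measured input. That filter keeps probes by the input channel, the denominator of the ratio, and 0 stays the median of all probes. Over all probes the locus was at -0.10 ± 0.12, and its 5 regions that kept at least 3 probes with input above background on all arrays averaged -0.36, -0.65 and -0.62 (mean -0.54 ± 0.16). The filter left 26 of the 84 probes. Among all tiled regions 47.9% were called lower under this filter, against 38.1% without it. How much of the lower level of the locus goes with the filter was not tested. Of the 6 regions 1 was called lower, none higher, and 5 did not pass the test. Only 66 of 252 bound measurements (26.2%) and 114 of 252 input measurements (45.2%) were well above background, against 54.7% and 73.8% over the whole array and 65.7% and 82.3% in the alpha window. The median log2 input signal of its probes was 7.58, against 9.60 in the alpha window and 9.27 over all probes. In a dim probe the ratio rests on surrogate signals near the background, and many beta probes are of this kind.

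Region 6 of the beta window (chromosome 7, 111001559 to 111002973, 19 probes), in the place of Hbb-y, was at -0.79, -0.60 and -0.42. Its mean of -0.60 ± 0.19 was below the median probe (limma adjusted p = 9.8e-04). Bound DNA was above background in 6 of 57 measurements and never in 14 of its 19 probes, so the value rests largely on probes without a measured bound signal. Over its 4 probes with input above background on all arrays it was -1.13 (adjusted p = 4.9e-10). They were kept by the denominator of the ratio, and none had bound signal above background on all arrays. How much of this low value goes with the filter was not tested. With normexp background correction it was -0.10 (adjusted p = 0.074).

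Region 3 (110976378 to 110977769, 15 probes), in the place of the adult gene Hbb-bs, was at 0.21, 0.28 and 0.28. The mean of 0.26 ± 0.04 was above 0 on 3 of 3 arrays with little spread and missed the threshold (limma adjusted p = 0.067). It was 0.43 with loess (adjusted p = 0.0033), 0.42 with the median over probes (adjusted p = 0.031), 0.29 over its 3 probes above background in both channels (adjusted p = 0.034), and -0.24 with the series matrix values. Of its 15 probes 5 never rose above background in either channel, and they enter the median over probes. No direction can be given for this region.

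Region 2 (110962350 to 110963686, 14 probes), in the place of the adult gene Hbb-bt, was at -0.12, 0.23 and 0.11, with a mean of 0.07 ± 0.18 (limma adjusted p = 0.61). Over its 4 probes with input above background on all arrays it was -0.43 (adjusted p = 0.0053), and -0.39 over its 3 probes above background in both channels (adjusted p = 0.0049). Regions 4 and 5 (110988749 to 110990063 and 110991539 to 110992768), in the places of Hbb-bh2 and the embryonic gene Hbb-bh1, were at 0.07 ± 0.10 and -0.19 ± 0.08. Over probes with input above background they were -0.41 (adjusted p = 0.0076) and -0.73 (adjusted p = 9.5e-06). With only such probes, 4 of the 5 regions that kept at least 3 probes were called lower, where 47.9% of all regions were called lower in the same way, and region 3 was at 0.0011 over 5 probes. Region 1 (110940167 to 110941026, 10 probes), in the place of Olfr67, was at -0.20 ± 0.34 and had 3 of 30 bound measurements above background. With the series matrix values it was called lower over 7 probes (-0.59, adjusted p = 0.0056).

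The probe above background in both channels that lay highest in the beta window was from 110977218, in region 3, at 0.11, 0.95 and 0.60, and it did not pass the test (limma adjusted p = 0.13). The lowest was from 110962804, in region 2, at -1.07, -0.72 and -1.32 (limma adjusted p = 0.020). The highest such beta probe, at 0.56 ± 0.42, lay below the highest such alpha probe, but it was the highest of 12 such probes against 34 in the alpha window. The beta window had 7 probes called higher, of which 5 never rose above background in either channel and have no measured ratio.

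Of the 5 beta regions tested only region 6 had a centre that differed from its edges, at -0.21 against -1.02, a difference of 0.82 ± 0.62 (limma adjusted p = 0.027). All 6 centre and 5 edge probes missed background in at least 1 channel on some array, and 4 of the centre probes were never above it in either channel. The call was lost with loess (0.30, adjusted p = 0.34), normexp (0.21, adjusted p = 0.065), the log ratio column (0.64, adjusted p = 0.067) and without replicate 2 (0.46, adjusted p = 0.29), and it turned to -0.53 with the series matrix values.

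The albumin window, with 3 regions and 37 probes, had 1 region called higher, none lower and 2 that did not pass the test. Bound DNA was above background in 37.8% of its measurements and input in 47.7%. The locus mean of 0.30 ± 0.16 was 0.48, -0.07 and -0.01 on arrays 1 to 3 with the series matrix values, and 0.78, 0.33 and -0.08 over probes with input above background. Its level thus did not keep 1 sign over the arrays under these settings. Region 2 (chromosome 5, 90918590 to 90919967, 13 probes), in the place of Afp, was at 0.65, 0.58 and 0.22. The mean of 0.48 ± 0.23 is 1.40-fold above the median probe (limma adjusted p = 0.0055), with array 3 lowest. Enrichment was strongest at its high-coordinate end, where stretch 4 of 4 averaged 1.10 ± 0.24 and held the highest well-measured probe of the window, from 90919853, at 1.93, 1.78 and 1.42 (limma adjusted p = 0.0053). With the mode as zero the region was at -0.24.

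Region 1 (90888823 to 90890096, 14 probes), in the place of Alb, was at 0.40, 0.09 and 0.22, a mean of 0.23 ± 0.15 (limma adjusted p = 0.11). It lay above 0 on 3 of 3 arrays and passed the test as higher only with loess (0.39, adjusted p = 0.0092), while with the mode as zero it was lower (-0.48, adjusted p = 0.0020). Region 3 (90947132 to 90948197, 10 probes), in the place of Afm, was at 0.36, 0.22 and -0.003 (mean 0.19 ± 0.18, limma adjusted p = 0.19). It had 4 of 30 bound measurements above background and was at -0.48 over 6 probes with the series matrix values (adjusted p = 0.029), and at 0.67 with the median over probes (adjusted p = 0.0021). Of its 10 probes 5 never rose above background in either channel, and these lay at 0.71 to 0.91. The median over probes thus rests largely on surrogate signals and shows no measured enrichment.

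All 3 albumin regions gave a lower ratio in the centre than at the edges, but few of the probes behind this were measured. Of the edge probes, none of 3 in region 1, 1 of 3 in region 2 and none of 2 in region 3 were above background in both channels on all arrays. In region 3 input was above background in 0 of 6 edge measurements, so its difference is set by surrogate signals and has no measured size. The computed difference was -0.86 ± 0.68 in region 1, -0.72 ± 0.44 in region 2 and -0.91 ± 0.31 in region 3 (limma adjusted p = 0.025, 0.034 and 0.0090). In the region in the place of Alb the probes from 90889301 and 90889402, both above background in both channels on all arrays, were at -0.55 ± 0.15 and -0.59 ± 0.42. Neither passed the test (limma adjusted p = 0.088 and 0.11). The other probes of that region measured in this way were at 0.57, 0.50 and 0.66 and did not pass it either. The call in region 1 was lost without replicate 1 (-0.49, adjusted p = 0.18) or 2 (-0.92, adjusted p = 0.081), and that in region 2 without replicate 1 (-0.71, adjusted p = 0.069) or 3 (-0.50, adjusted p = 0.22) or with loess (-0.60, adjusted p = 0.073). Both were also lost with the series matrix values (-0.30 and -0.32, adjusted p = 0.40 and 0.32).

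**Figure D2:**
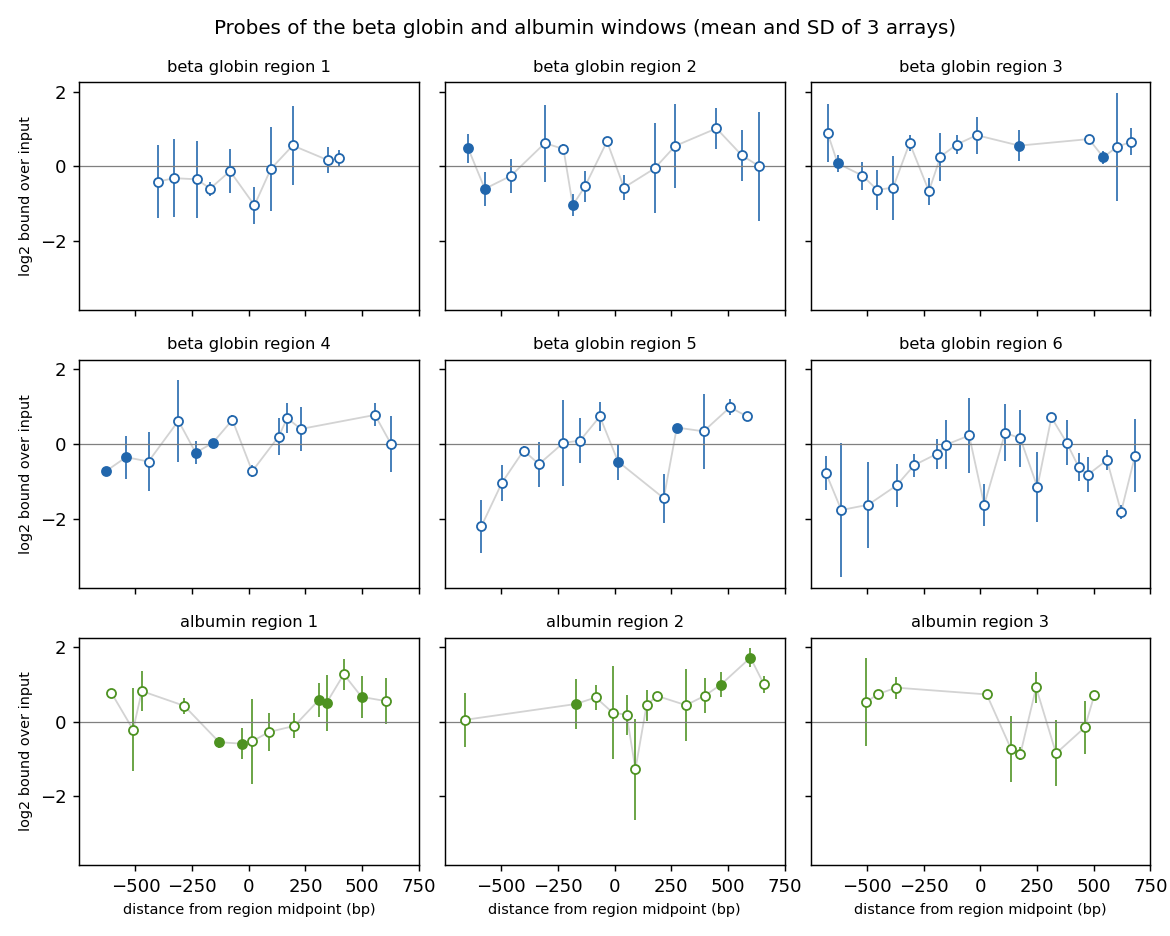
Probes of the 6 beta globin and 3 albumin regions, with the log2 ratio of bound over input on the vertical axis and the distance from the region's midpoint in bp on the horizontal axis. Points are means and bars SDs of 3 arrays, and filled points, above background in both channels on all arrays, are 12 of 84 in the beta window and 8 of 37 in the albumin window. Most points are open, and albumin region 2 rises to 1.71 at its right end.

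Counted over all 3 windows, 4 of 15 regions were called higher (26.7%) and 4 lower (26.7%), near the 28.0% and 38.1% of all regions. With the mode as zero 0 of 15 were higher and 12 lower, where 8.67% and 76.9% of all regions were. That zero lies near the ratios of some probes without measured signal, as given above. Over probes with input above background 3 of 13 were higher and 7 lower, where 29.1% and 47.9% of all regions were. With probes joined up to 250 bp 7 of 18 were higher and 3 lower, where 27.4% and 35.7% of all regions were. The median region of the windows was at 0.07 and that of the array at -0.11. Of the 187 probes, 34 were called higher (18.2%) and 25 lower (13.4%), against 22.4% and 23.6% of all probes. These shares do not set the loci as a whole apart from the array. By window, 16 of 66 alpha probes were called higher and 13 lower, 7 of 84 beta probes higher and 11 lower, and 11 of 37 albumin probes higher and 1 lower. Of the 11 higher albumin probes, 6 never rose above background in either channel, and none of the 16 alpha probes was. These counts fell when a single array was left out, as did the counts over the whole array, which the last paragraph gives. A fall is therefore not particular to these windows. Without replicate 1, 2 or 3 the higher probes were 3, 2 and 1 in the albumin window and 3, 1 and 0 in the beta window, and 10 in the alpha window without replicate 2. Such fits rest on 2 arrays only.

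**Figure D3:**
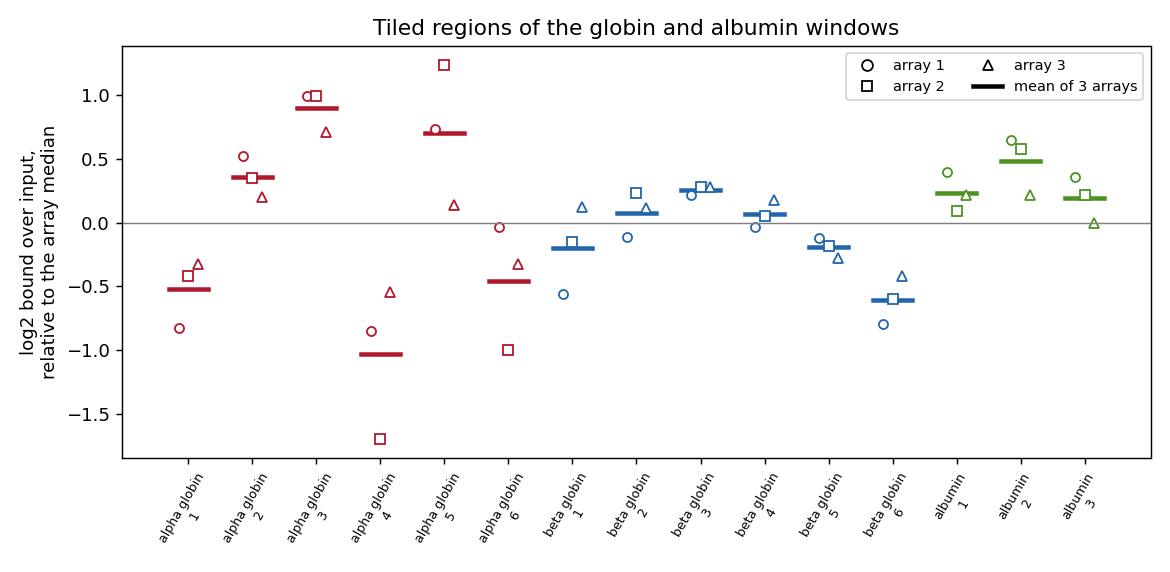
Region means of the 3 windows, with the log2 ratio of bound over input relative to the array median on the vertical axis. The horizontal axis gives the alpha globin, beta globin and albumin regions in turn, from low to high coordinates within each window. Symbols are the 3 arrays and bars their mean. The alpha regions spread from -1.03 to 0.90, the beta regions from -0.60 to 0.26 and the albumin regions from 0.19 to 0.48.

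The alpha locus, with more CpGs in its promoters than the others, was then compared with them as a whole. Its regions averaged 0.09, -0.09 and -0.02 on arrays 1 to 3, a mean of -0.01 ± 0.09. Those of the beta locus averaged -0.23, -0.06 and -0.001 (-0.10 ± 0.12) and those of the albumin locus 0.47, 0.29 and 0.14 (0.30 ± 0.16). Alpha minus beta globin was 0.33, -0.03 and -0.02, so the arrays did not share a direction (mean 0.09 ± 0.20, exact two-sided sign-flip permutation p = 1). Alpha globin minus albumin was -0.38, -0.38 and -0.17 (mean -0.31 ± 0.12), lower on 3 of 3 arrays, with p = 0.25 in the exact sign-flip test, the smallest that 3 arrays allow, and 0.75 after adjustment over the 3 comparisons. Against both other loci together the alpha locus differed by 0.09, -0.15 and -0.07 (mean -0.04 ± 0.12, exact permutation p = 0.75).

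No overall difference between the alpha locus and the others could be given a direction, since it turned with the choice of probes and values. Alpha minus beta globin was 0.53 ± 0.23 over probes above background in both channels, 0.50 ± 0.09 over probes with input above background and 0.78 ± 0.16 with the series matrix values, each positive on 3 of 3 arrays (exact permutation p = 0.25). It was -0.05 with loess and -0.31 when runs of 1 or 2 probes were counted as regions. The 3 such runs all lay in the alpha window, with 4 probes in all, and were at -1.71 ± 0.67, -1.21 ± 0.83 and -0.69 ± 0.16. Bound DNA was above background in 1 of their 12 measurements. The windows also differed in brightness, as given above, and that part of the difference was not tested.

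**Figure D4:**
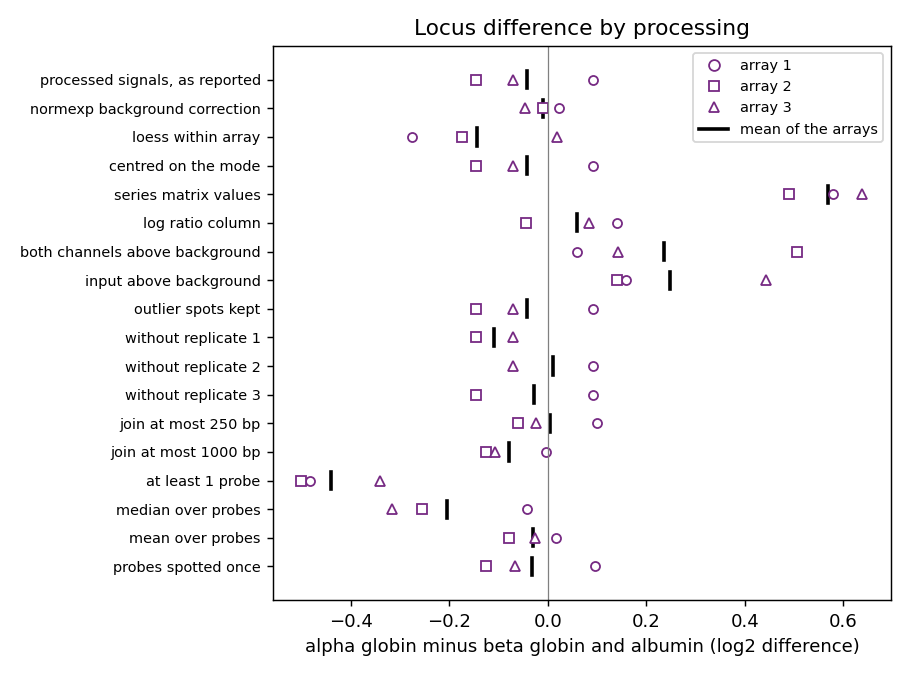
Mean of the alpha globin regions minus that of the beta globin and albumin regions on the horizontal axis (log2 difference), for each way of processing on the vertical axis. Symbols are the arrays and bars their mean. The mean runs from -0.44 when single probes count as regions to 0.57 with the series matrix values, on either side of 0.

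The loci differed more in the range of their regions than in their level. The 6 alpha regions ran from -1.03 to 0.90, whereas the 6 beta regions ran from -0.60 to 0.26 and the 3 albumin regions from 0.19 to 0.48. No test of this spread was made. Over all tiled regions of the array the 5th and 95th percentiles were -1.15 and 1.30, and the range of each window lay between them. Regions had 4 to 16 probes in the alpha window, 10 to 19 in the beta window and 10 to 14 in the albumin window. The ranges were not adjusted for this or for the number of regions. The locus with the wider spread was also the one with the brighter input and with 34 of 66 probes above background in both channels on all arrays, against 12 of 84 and 8 of 37. Within the alpha window the regions in the places of genes with 1 to 4 promoter CpGs were the higher ones, and those in the places of genes with 7 to 11 the lower ones. This order was seen after the values were known, rests on 6 regions paired with genes by order, and was not tested.

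Each window was set against the tiled regions within 1 Mb on either side of it. The 21 regions around the alpha window averaged -0.35 ± 0.10, with 4 called higher and 13 lower (61.9%), and the alpha window exceeded them by 0.49, 0.33 and 0.22 on arrays 1 to 3 (mean 0.34 ± 0.14). Of these 21 neighbours, 1 was above region 3. Around the albumin window 23 regions averaged 0.06 ± 0.04, with 5 called higher (21.7%) and 2 lower (8.7%). The window exceeded them by 0.39, 0.20 and 0.12 (mean 0.24 ± 0.14). For both the exact permutation p (two-sided, by sign flips) was 0.25, or 0.38 adjusted over 3 comparisons. The 120 regions around the beta window, a stretch rich in olfactory receptor genes, averaged -0.02 ± 0.09, with 29 called higher (24.2%) and 31 lower (25.8%). The window differed from them by -0.12, -0.12 and 0.01 (mean -0.08 ± 0.08, exact permutation p = 0.5). The excess of the alpha window turned to -0.10 when runs of under 3 probes were counted, and the difference of the beta window to 0.06 with loess.

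**Figure D5:**
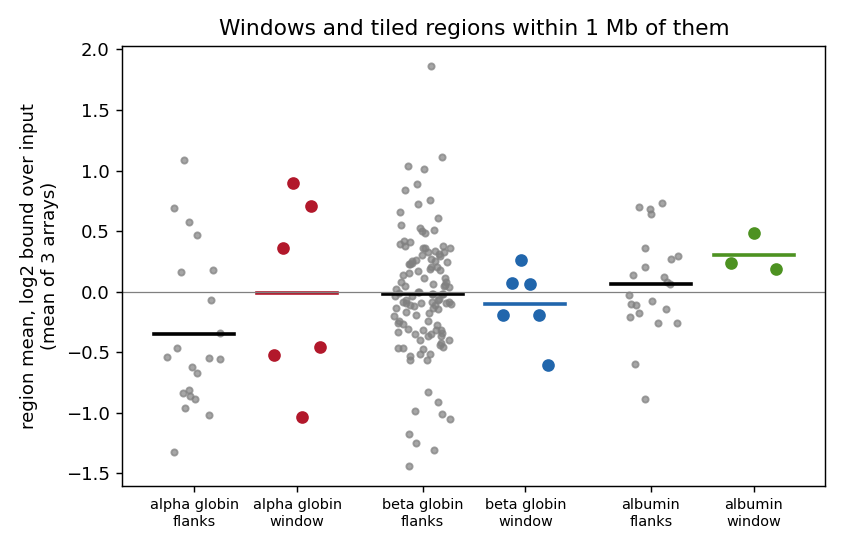
Region means (log2 bound over input, mean of 3 arrays) of the alpha globin, beta globin and albumin windows in colour and of the tiled regions within 1 Mb of each in grey, with bars at the group means. The alpha flanks average -0.35 against -0.01 in the window, the beta flanks -0.02 against -0.10, and the albumin flanks 0.06 against 0.30.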

How the data were processed

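DNA of 3 pools of 3 mice (2 µg each) was immunoprecipitated with 10 µg of an antibody against 5-methylcytosine and 50 µl of protein G, and bound and input DNA were amplified before labelling, per the labels' protocols. Per the file headers, the deposited intensities were extracted with Feature Extraction 10.7.3.1 (Agilent) from a custom design on mm9, with the background subtracted, spatial trends removed and 1 linear dye factor per channel. Per the file headers, a column gives log10 ratios of Cy5 over Cy3, and probes are flagged with 0 or 1 as well above background or as outliers. The deposited series matrix holds the authors' log2 ratios, with their normalisation not stated in these sources and column medians of -0.97 on all 3 arrays.

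Log2 of the bound over input processed signal was taken, outlier spots were left out, the median over non-control spots was subtracted on each array, and repeated probes were averaged. No loess or quantile step was used. Regions were fitted with limma 3.58.1 in R 4.3.3 against 0, over all regions with at least 3 probes, with Benjamini-Hochberg adjustment at 0.05. Locus differences used exact sign-flip tests. No slide held more than 1 of the 3 arrays used, so slide could not be a block. Normexp used spot medians (offset 50), since the files used give no spot means. Every region of the windows was described; probes were named as the highest or lowest of their window among those measured above background in both channels, and other probes shown (from 32176367, 90889301 and 90889402) were chosen after their values were seen. The splits of regions at the midpoint and into 4 stretches, and the within-region spread, were also chosen after seeing the data. The windows, members and gene lists were chosen with earlier results of these data known. Code was tested on simulated data. Precision is limited by the number of arrays.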

Additional observations from a re-analysis of the deposited data

How the results depend on the processing

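No paired analysis was possible because all arrays belong to 1 group. With 3 arrays the exact sign-flip tests cannot pass the threshold under any setting. Where a result below changed, the cause was not tested, except that fits on fewer arrays or probes have less to work with. Dim probes limit the beta globin and albumin windows most.

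With the mode as zero, 31979 probes were called higher and 167994 lower over the array, against 91802 and 96477 as reported. This zero lay 0.70, 0.81 and 0.64 above the median on arrays 1 to 3, near ratios of some probes without measured signal. Tiled regions came to 2503 higher and 22206 lower, against 8074 and 10998, or 8.67% and 76.9% of all, and regions of the windows to 0 and 12 of 15, against 4 and 4. Signs then turned in alpha globin regions 2 (-0.36) and 5 (-0.012), beta globin regions 2 (-0.64), 3 (-0.46) and 4 (-0.65), and albumin regions 1 (-0.48), 2 (-0.24) and 3 (-0.53).

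With the series matrix values 60894 probes were lower. Signs turned in beta globin regions 2 (-0.29), 3 (-0.24) and 4 (-0.26) and albumin region 3 (-0.48), and in centre minus edges of beta globin regions 2 (0.28), 3 (-0.064), 4 (-0.34) and 6 (-0.53). Alpha globin minus albumin was 0.15 and minus both loci 0.57. With the log ratio column beta globin regions 2 and 4 were -0.068 and -0.047, albumin region 3 was -0.051, and alpha globin minus both loci was 0.060.

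Over probes above background in both channels, 38597 probes and 4980 of 22041 regions were lower, and the centre was higher in 2061 and lower in 3133 of 7394 regions. Beta globin regions 2 and 4 were -0.39 and -0.32, and alpha globin minus both loci was 0.24. Over probes with input above background, 7 of 13 regions of the windows were lower (47.9% of all regions), beta globin regions 2 and 4 were -0.43 and -0.41, and alpha globin minus both loci was 0.25.

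With loess beta globin region 1 was 0.073, centre minus edges of beta globin region 3 was -0.049, alpha minus beta globin -0.052 and beta globin minus its flanks 0.056. With normexp beta globin regions 1 and 4 were 0.017 and -0.044, and centre minus edges of beta globin region 5 was -0.041. Joining up to 250 bp gave 7 of 18 regions of the windows higher (27.4% of all regions) and 0.0053 for alpha globin minus both loci. Counting runs of 1 probe gave -0.31 for alpha minus beta globin and -0.10 for alpha globin minus its flanks. With the median over probes alpha globin region 2 was -0.072 and alpha minus beta globin -0.013.

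Leaving out 1 array at a time gave 42673 to 63335 probes higher, 58570 to 86578 lower and 2277 to 3270 regions with a higher centre, the lowest each without replicate 2. Alpha minus beta globin ran from -0.025 to 0.15, and alpha globin minus both loci from -0.11 to 0.010. Beta globin region 2 ran from -0.0026 to 0.17, and centre minus edges of beta globin region 3 from -0.10 to 0.56.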
